A study of Homo sapiens with 6 samples.

Results

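The genes described here make cholesterol and fatty acids, or sense and carry sterols. A list of 36 such genes was matched by symbol to the annotation of the array, and 30 of them had a row, out of 14884 named genes in all. The named genes, the background below, include non-coding RNA genes and pseudogenes. The 30 genes comprise 20 genes of cholesterol synthesis and its control and 10 genes of fatty acid synthesis and modification. The genes FDFT1, LSS, CYP51A1, SC5D, ME1 and ACSL3 were not analysed here. SUM159 is an established breast cancer cell line that serves the study as a model of the basal-like subtype. Spinophilin-silenced cells carried a lentiviral short hairpin RNA (shRNA) against spinophilin, and control cells carried a scrambled shRNA. Both had been stably transduced, selected with puromycin and grown in Ham's F12 medium with insulin, hydrocortisone and fetal calf serum. Total RNA of 3 samples of each kind was amplified to cDNA, which was labelled and measured on Affymetrix Human Gene 2.0 ST arrays, 1 sample per array, so 6 arrays in all. The samples of each group are labelled 1, 2 and 2d, and the labels do not explain the letter d. The paper calls them independent biological replicates, but the sources do not say whether they came from separate transductions or whether 2 and 2d share a culture, so a p-value here measures only the spread between these samples.

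Cells build cholesterol from acetyl-CoA through mevalonate and squalene, and they build fatty acids from acetyl-CoA through malonyl-CoA. Both routes are switched on by the sterol regulatory element-binding proteins (SREBPs), transcription factors made as precursors in the membrane of the endoplasmic reticulum. When sterols are scarce, the escort protein SCAP carries the precursor to the Golgi apparatus, where proteases release the active factor. When sterols are abundant, INSIG proteins hold SCAP back, and transcription of the pathway falls. Tumor cells often draw on both routes for membranes and signalling lipids.

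All values below are log2 expression values normalized together over the 6 arrays, so a difference of 1 is a doubling, and levels of different genes come from different probes and are not ranked against each other. The medians of the arrays lay between 5.19 and 5.23. The mean of 29 of the 30 synthesis genes lay above the highest array median, and 0 of 30 lay below the highest lower quartile of an array, 3.90. Over all synthesis genes and arrays, single values ran between 4.76 (HSD17B7, spinophilin-silenced 2) and 11.11 (SCD, spinophilin-silenced 2d). Spinophilin itself (PPP1R9B) was not analysed here, so the labels were not checked against the silenced gene. Of the marker genes of basal and mesenchymal lines, 10 of 13 were measured, and their mean level per array was 8.37 to 8.53 in spinophilin-silenced cells and 8.37 to 8.47 in control cells. The intermediate filament gene VIM lay between 12.52 and 12.58 in spinophilin-silenced cells and between 12.56 and 12.63 in control cells, whereas the basal keratin KRT5 lay between 4.64 and 5.03 in spinophilin-silenced cells and between 4.37 and 4.72 in control cells, below the array medians. All 17 listed luminal markers were measured, with a mean per array of 5.52 to 5.60 in spinophilin-silenced cells and 5.55 to 5.61 in control cells. Of the 8 fibroblast and blood markers, 3 were measured, with a mean per array of 3.73 to 3.91 in spinophilin-silenced cells and 3.93 to 3.95 in control cells.

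The main comparison asked whether silencing spinophilin changed the expression of these genes. None of the 30 genes passed limma's moderated test after Benjamini-Hochberg adjustment over all 53617 transcript clusters (the probe sets of the array), with adjusted p-values between 0.653 and 0.996, against 0.222% of all named genes that passed. Without adjustment, 1 of 30 had a p under 0.05 (ACAT2), against 6.72% of named genes. Of the 30, 0 also reached the 1.5-fold change that the study required, against 0.873% of named genes. The study's own p came from an analysis of variance whose second factor is not named, so its criterion was not repeated here. The log2 differences, spinophilin-silenced minus control, ran between -0.12 (ACLY) and 0.27 (HMGCS1). They were above 0 for 22 genes and below 0 for 8, and their median was 0.062, whereas the median over all named genes was -0.0105 and 46.3% of named genes lay above 0. Leaving out the spinophilin-silenced array 2d brought the median of the 30 genes to 0.0091, leaving out control array 1 brought it to 0.014, and leaving out control array 2d brought it to 0.118.

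The groups did not overlap for 2 genes, ACAT2 and EBP, both higher in spinophilin-silenced cells, against 6.55% of named genes higher without overlap. No gene of the 30 was lower without overlap, against 7.67% of named genes. For 26 of 30 genes the 95% confidence interval of the difference lay within a 1.5-fold change in either direction, as it did for 92.5% of named genes. The remaining 4 were HMGCS1, INSIG1, MSMO1 and HSD17B7, whose intervals passed 1.5-fold on the higher side. The lowest bound of any interval was -0.46 and the highest was 0.82. By group, the median difference was 0.087 for the 20 cholesterol genes (15 above 0) and 0.042 for the 10 fatty acid genes (7 above 0), and with single arrays left out these medians ran between 0.033 and 0.135 for cholesterol genes and between -0.0066 and 0.060 for fatty acid genes.

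**Figure D1:**
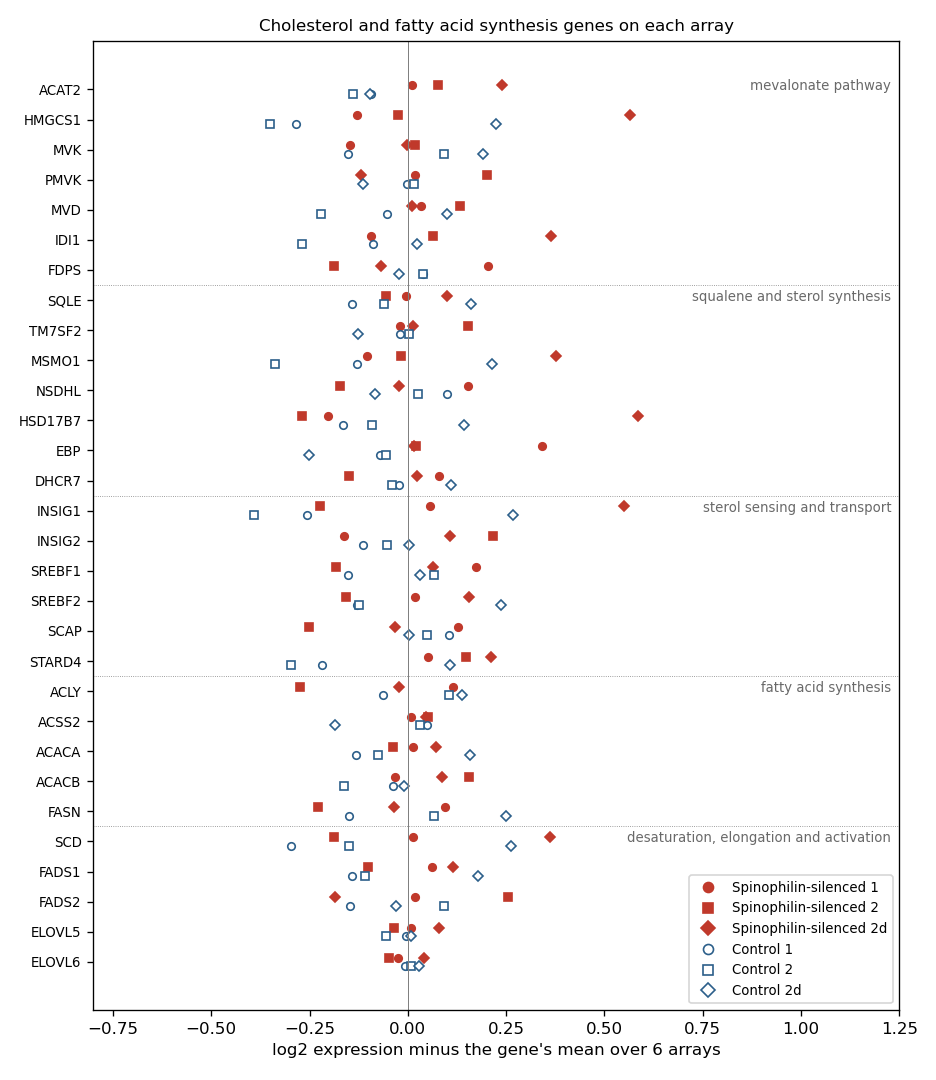
Level of each of the 30 synthesis genes on each array, as log2 expression minus the mean of that gene over the 6 arrays (x axis), with genes on the y axis grouped by role. Filled red marks are spinophilin-silenced arrays and open blue marks are control arrays, and the diamonds, the arrays labelled 2d of both groups, lie farthest to the right within their group for INSIG1, HMGCS1, MSMO1 and SCD.

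For several genes, 1 array of each group stood farther from the other arrays of its group than the group means stood from each other. For INSIG1, which retains SCAP in the endoplasmic reticulum and is itself a well-known SREBP target, the values were 9.40, 9.12 and 9.89 on the spinophilin-silenced arrays 1, 2 and 2d, and 9.09, 8.95 and 9.61 on the control arrays 1, 2 and 2d. HMGCS1, the enzyme that joins acetoacetyl-CoA with acetyl-CoA, measured 8.55, 8.65 and 9.24 in spinophilin-silenced cells and 8.39, 8.33 and 8.90 in control cells. In both genes the array labelled 2d was the highest of its group, in both groups, and the groups overlapped through the high control array 2d. The same held for MSMO1, a methylsterol monooxygenase, with 8.53, 8.61 and 9.01 in spinophilin-silenced cells and 8.50, 8.29 and 8.84 in control cells. SCD, the desaturase that makes monounsaturated fatty acids, measured 10.77, 10.56 and 11.11 in spinophilin-silenced cells and 10.46, 10.60 and 11.01 in control cells. In a second transcript cluster that carries the symbol SCD, array 2d was also the highest of each group, with 9.17, 9.26 and 9.51 in spinophilin-silenced cells and 8.96, 8.93 and 9.29 in control cells on the arrays 1, 2 and 2d.

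Array 2d was the highest of its group in both groups for 13 of 30 genes, against 12.6% of all named genes. Besides the 4 genes above, these were HSD17B7, SREBF2, IDI1, FADS1, SQLE, STARD4, ACACA, ELOVL5 and ELOVL6. For ELOVL5 and ELOVL6 the control array 2d exceeded the mean of the other 2 by only 0.038 and 0.027. Label 1 was highest in both groups for 3 genes and label 2 for 3 genes. The reverse, with array 2d lowest in both groups, was found for 2 genes, EBP and PMVK. For labels 1 and 2 and for the reverse, the share of named genes was not counted. Array 2d exceeded the mean of the other 2 arrays of its group by more than 0.3 in both groups for 4 of 30 genes, against 0.759% of named genes. These excesses, in spinophilin-silenced and in control cells, were 0.63 and 0.59 for INSIG1, 0.64 and 0.54 for HMGCS1, 0.45 and 0.48 for SCD, and 0.44 and 0.45 for MSMO1. With all 14884 named genes ordered by the smaller of both excesses, these genes stood at places 10, 13, 28 and 31. Over all 30 genes the median excess of array 2d was 0.073 in spinophilin-silenced cells and 0.129 in control cells, and over all named genes it was -0.016 in spinophilin-silenced cells and -0.012 in control cells. This pattern was noticed in the values and carries no test, and its source was not tested.

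**Figure D2:**
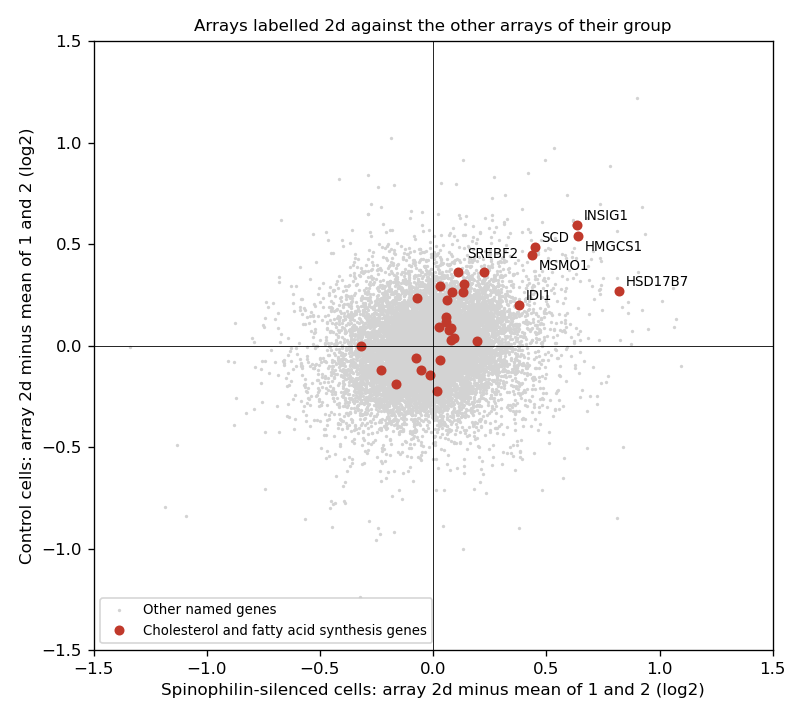
Excess of the array labelled 2d over the mean of arrays 1 and 2 of the same group (log2), in spinophilin-silenced cells (x axis) and in control cells (y axis), for the 30 synthesis genes (red) and the other named genes (grey). INSIG1, HMGCS1, SCD and MSMO1 lie at the upper right, above 0.3 on both axes.

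**Figure D3:**
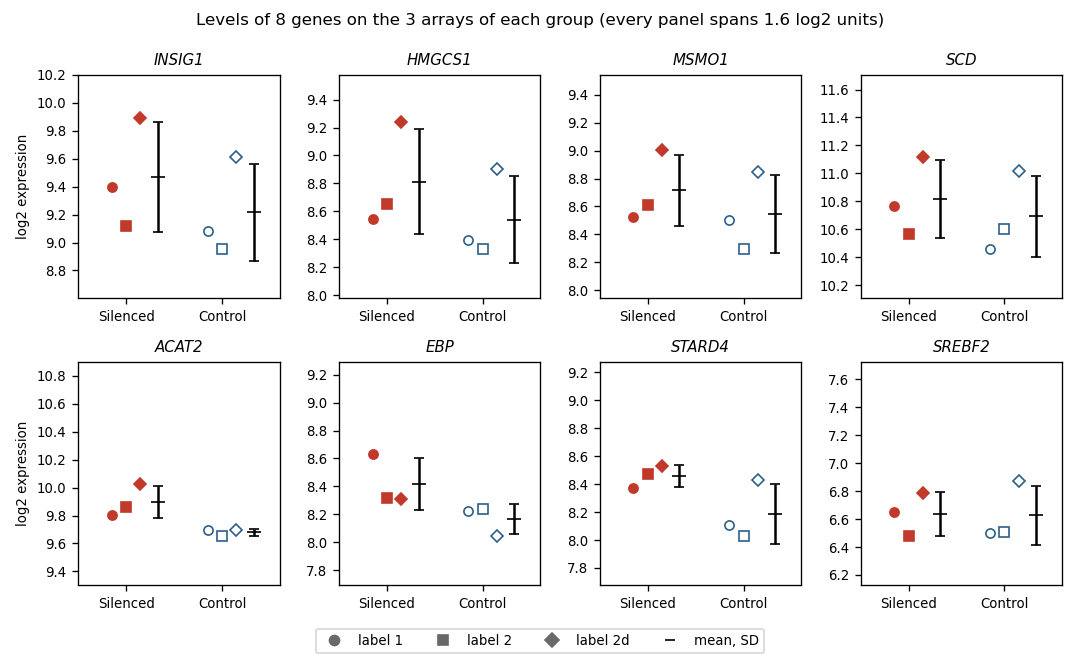
Log2 expression of 8 genes on the 3 arrays of each group, spinophilin-silenced left and control right in every panel, with mean and standard deviation (n = 3) as bars and every panel spanning the same range of log2 units. In the panels of INSIG1, HMGCS1, MSMO1 and SCD the diamond (array 2d) is the highest mark of each group, and ACAT2 and EBP are the genes whose groups do not overlap.

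The promoters of the 4 genes whose excess on array 2d passed 0.3 in both groups are shown, and that of SREBF2, which encodes an SREBP and was also highest on array 2d in both groups. In general, SREBPs act at promoters together with the CCAAT-binding factor NF-Y. Binding of either factor was not measured here, and a link to the 2d pattern was not tested. Each is the stretch of 250 bases before the transcription start, from RefSeq on GRCh38.p14, 5′ to 3′ on the strand of the gene, at the start farthest upstream where the table has several. The stretches lie at chr7:155297628-155297877 on the plus strand for INSIG1, chr5:43313413-43313662 on the minus strand for HMGCS1, chr4:165327419-165327668 on the plus strand for MSMO1, chr10:100346983-100347232 on the plus strand for SCD and chr22:41832855-41833104 on the plus strand for SREBF2. Capitals mark CCAAT, which reads ATTGG where it lies on the other strand, and in SREBF2 also TCACCCCAC, the letters of a sterol regulatory element.
INSIG1: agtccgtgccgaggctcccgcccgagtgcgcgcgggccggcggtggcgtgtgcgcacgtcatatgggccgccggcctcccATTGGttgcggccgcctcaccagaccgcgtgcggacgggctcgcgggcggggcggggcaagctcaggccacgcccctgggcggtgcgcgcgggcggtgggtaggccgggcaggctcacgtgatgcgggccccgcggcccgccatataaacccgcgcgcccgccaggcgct
HMGCS1: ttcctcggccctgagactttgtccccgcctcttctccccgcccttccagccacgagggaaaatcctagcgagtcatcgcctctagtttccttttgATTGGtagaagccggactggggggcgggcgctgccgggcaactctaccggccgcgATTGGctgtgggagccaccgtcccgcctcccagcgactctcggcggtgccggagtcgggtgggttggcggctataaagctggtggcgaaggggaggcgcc
MSMO1: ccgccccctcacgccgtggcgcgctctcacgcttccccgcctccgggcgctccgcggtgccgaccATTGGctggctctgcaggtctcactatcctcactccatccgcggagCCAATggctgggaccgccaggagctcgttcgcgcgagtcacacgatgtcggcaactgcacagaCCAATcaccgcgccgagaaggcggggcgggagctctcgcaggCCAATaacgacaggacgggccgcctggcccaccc
SCD: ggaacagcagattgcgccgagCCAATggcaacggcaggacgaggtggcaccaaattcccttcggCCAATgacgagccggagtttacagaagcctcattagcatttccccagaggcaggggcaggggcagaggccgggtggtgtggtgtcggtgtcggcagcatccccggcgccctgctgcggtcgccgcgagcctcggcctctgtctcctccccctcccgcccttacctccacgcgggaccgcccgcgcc
SREBF2: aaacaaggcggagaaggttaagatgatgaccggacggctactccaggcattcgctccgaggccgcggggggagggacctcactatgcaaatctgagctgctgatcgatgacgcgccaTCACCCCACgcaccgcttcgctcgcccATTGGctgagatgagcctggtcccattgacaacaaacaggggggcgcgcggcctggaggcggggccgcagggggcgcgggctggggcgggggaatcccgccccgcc

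MSMO1 held 4 CCAAT matches, HMGCS1 and SCD 2 each, and INSIG1 and SREBF2 1 each. A second promoter of HMGCS1 in the table, not printed, held 0. In HMGCS1 both matches read ATTGG and began 155 and 100 bases before the start, whereas both matches of SCD read CCAAT and began 229 and 186 bases before it. The sterol regulatory element of SREBF2 lay 133 to 125 bases before the start, upstream of its ATTGG at 106 to 102. Of the 30 genes, 27 had a promoter in the RefSeq table, with 38 promoters among them, each 300 bases long (250 before the start and 50 after it). CCAAT on either strand was found in 24 of these 38 (63.2%), against 34.6% of all 35116 promoters. GGGCGG, the letters bound by Sp1, was found in 32 of 38 (84.2%), against 45.0% of all promoters. The sterol regulatory element TCACNCCAC was found in 1 of 38, that of SREBF2, against 1.13% of all promoters. The comparison promoters were not restricted to expressed or protein-coding genes. The higher shares of CCAAT and GGGCGG are therefore not shown to be particular to the synthesis genes. Each motif was searched on both strands and counted whether or not it overlapped another, and several genes have start sites whose windows overlap. A match is a description of letters, and no match says only that these letters were not in the window.

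Among the regulators of the pathway, none passed the test. INSIG1 averaged 9.47 ± 0.39 in spinophilin-silenced cells and 9.22 ± 0.35 in control cells (SD, n = 3 each), a log2 difference of 0.25 with a standard error of 0.24 (limma, adjusted p = 0.889). That difference was 0.04 without the spinophilin-silenced array 2d and 0.45 without the control array 2d. INSIG2, which also anchors SCAP, measured 6.77, 7.15 and 7.04 in spinophilin-silenced cells and 6.81, 6.87 and 6.93 in control cells. The spread of INSIG2 was wider in spinophilin-silenced cells, and its difference of 0.11 (SE 0.11, limma, adjusted p = 0.901) ran between 0.03 and 0.22 when single arrays were left out.

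SREBF1 encodes the SREBP best known for driving fatty acid genes. It measured 6.37, 6.02 and 6.26 in spinophilin-silenced cells and 6.05, 6.27 and 6.23 in control cells, a difference of 0.04 (SE 0.12, limma, adjusted p = 0.976). SREBF2, whose product mainly drives the cholesterol genes, measured 6.65, 6.48 and 6.79 in spinophilin-silenced cells and 6.50, 6.51 and 6.87 in control cells, a difference of 0.01 (SE 0.13, limma, adjusted p = 0.996). The groups overlapped for both, and each difference changed sign when a single array was left out. SCAP, the escort, measured 6.97, 6.60 and 6.81 in spinophilin-silenced cells and 6.95, 6.90 and 6.85 in control cells, a difference of -0.10 (SE 0.11, limma, adjusted p = 0.905). That difference rested on the low spinophilin-silenced array 2, and without that array it was -0.005.

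STARD4, a soluble carrier that moves sterols between membranes, was the member of this group with the smallest spread in spinophilin-silenced cells. It measured 8.37, 8.47 and 8.53 there and 8.11, 8.03 and 8.43 in control cells. Only the control array 2d reached into the range of the spinophilin-silenced arrays. The difference was 0.27 (SE 0.12, limma, adjusted p = 0.703), and it stayed between 0.19 and 0.39 when each array was left out in turn.

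In the mevalonate pathway, 5 of 7 genes lay above 0, with a median difference of 0.116. ACAT2, the cytosolic thiolase that makes acetoacetyl-CoA, measured 9.80, 9.86 and 10.03 in spinophilin-silenced cells and 9.70, 9.65 and 9.69 in control cells. Every spinophilin-silenced array lay above every control array, and the 2d array of the control cells was not high. The difference was 0.22 (SE 0.088), with an interval of 0.01 to 0.43 (limma, unadjusted p = 0.0427, adjusted p = 0.653), and leaving out single arrays gave 0.15 to 0.27. Its unadjusted p stayed under 0.05 only without the spinophilin-silenced array 1 (limma, unadjusted p = 0.0318, adjusted p = 0.57), and the other 5 removals gave unadjusted p-values between 0.068 and 0.123. An exact permutation test of 3 arrays against 3 cannot give a p under 0.1.

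HMGCS1 averaged 8.81 ± 0.37 in spinophilin-silenced cells and 8.54 ± 0.31 in control cells (SD, n = 3 each), a difference of 0.27 (SE 0.22, limma, adjusted p = 0.871). Without the spinophilin-silenced array 2d it was 0.06, and without the control array 2d it was 0.45. IDI1, which isomerizes isopentenyl diphosphate, measured 7.49, 7.65 and 7.95 in spinophilin-silenced cells and 7.50, 7.32 and 7.61 in control cells, and the groups overlapped. Its difference was 0.22 (SE 0.14, limma, adjusted p = 0.818), and it ran between 0.10 and 0.33 with single arrays left out. MVD, which decarboxylates mevalonate diphosphate, differed by 0.12, and PMVK, the kinase before it, by 0.07.

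Below 0 in this pathway were MVK and FDPS. Mevalonate kinase, MVK, measured 5.26, 5.42 and 5.40 in spinophilin-silenced cells and 5.25, 5.49 and 5.59 in control cells, a difference of -0.09 (SE 0.11, limma, adjusted p = 0.927). FDPS, which makes farnesyl diphosphate, measured 8.64, 8.24 and 8.36 in spinophilin-silenced cells and 8.47, 8.47 and 8.41 in control cells. The control arrays of FDPS lay close together and inside the range of the spinophilin-silenced ones. Its difference of -0.04 (SE 0.11, limma, adjusted p = 0.976) ran between -0.15 and 0.05 with single arrays left out, and a second FDPS transcript cluster differed by 0.04.

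In squalene and sterol synthesis, 5 of 7 genes lay above 0, with a median of 0.076. EBP, a sterol isomerase, measured 8.63, 8.31 and 8.31 in spinophilin-silenced cells and 8.22, 8.24 and 8.04 in control cells. The groups did not overlap, but the spinophilin-silenced array 1 stood above the other 2, and without it the difference of 0.25 (SE 0.12, limma, adjusted p = 0.723) was 0.14. As in PMVK, array 2d was the lowest of its group in both groups.

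HSD17B7, a sterol ketone reductase, was the gene most dependent on 1 array. It measured 4.83, 4.76 and 5.61 in spinophilin-silenced cells and 4.86, 4.94 and 5.17 in control cells. The spinophilin-silenced array 2d stood alone at the top, and the other 2 spinophilin-silenced arrays lay below every control array. The difference was 0.08 with all arrays (SE 0.23, limma, adjusted p = 0.974) and -0.20 without the spinophilin-silenced array 2d.

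MSMO1 averaged 8.72 ± 0.26 in spinophilin-silenced cells and 8.55 ± 0.28 in control cells (SD, n = 3 each), a difference of 0.17 (SE 0.18, limma, adjusted p = 0.904). That difference ran between 0.02 and 0.32 with single arrays left out. TM7SF2, a sterol reductase, differed by 0.10 and SQLE, the squalene epoxidase, by 0.03. DHCR7, which catalyses the closing reduction to cholesterol in one branch, measured 7.15, 6.92 and 7.09 in spinophilin-silenced cells and 7.04, 7.03 and 7.18 in control cells, a difference of -0.03 (SE 0.095, limma, adjusted p = 0.975). NSDHL, the dehydrogenase that acts with MSMO1 in removing ring methyl groups, also differed by -0.03. The groups overlapped for these 5 genes, and the differences of SQLE, DHCR7 and NSDHL changed sign when a single array was left out.

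**Figure D4:**
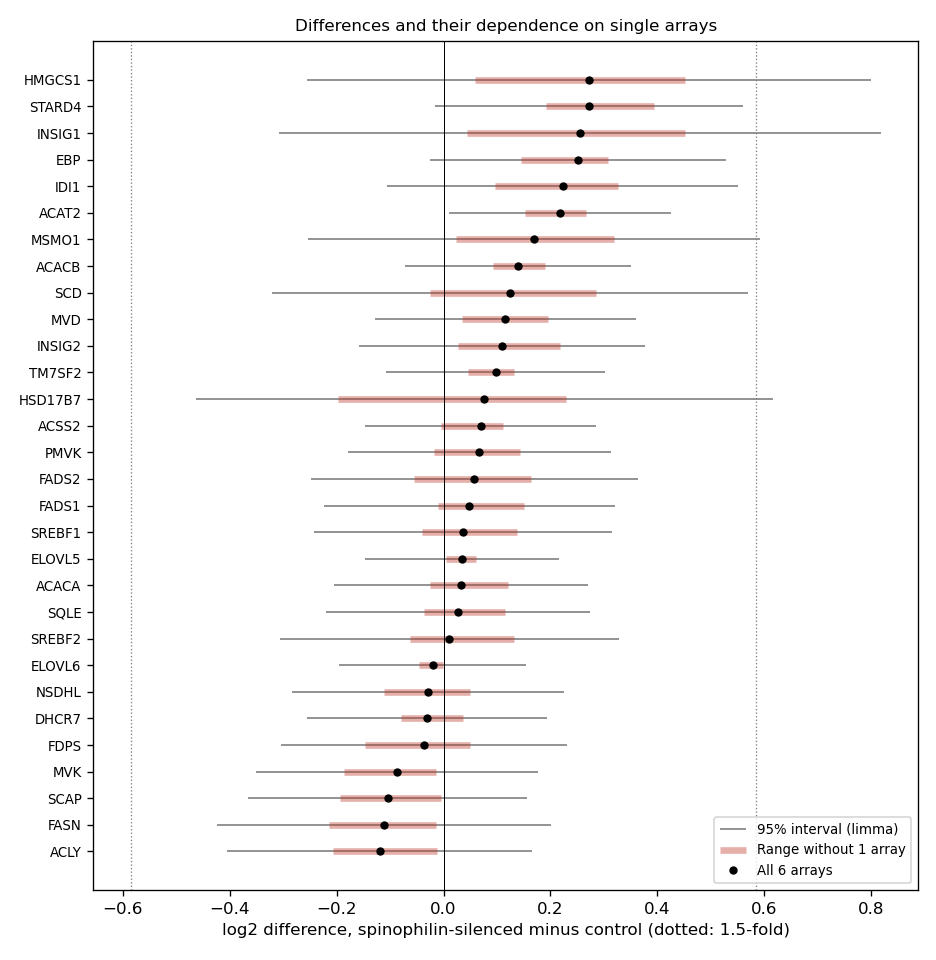
Log2 difference, spinophilin-silenced minus control, of each of the 30 genes (black points, x axis) with its 95% confidence interval from limma (thin lines) and its range when 1 array is left out (red bars), and dotted lines at a 1.5-fold change. The interval of ACAT2 alone excludes 0, and the red bars of 13 genes cross 0.

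The genes that build the fatty acid chain gave small differences in both directions, 3 of 5 above 0, with a median of 0.033. ACLY, which splits citrate to supply cytosolic acetyl-CoA, measured 9.90, 9.51 and 9.76 in spinophilin-silenced cells and 9.72, 9.89 and 9.92 in control cells, a difference of -0.12 (SE 0.12, limma, adjusted p = 0.899). FASN, the fatty acid synthase, measured 6.64, 6.32 and 6.51 in spinophilin-silenced cells and 6.40, 6.61 and 6.80 in control cells, a difference of -0.11 (SE 0.13, limma, adjusted p = 0.923). In both genes the spinophilin-silenced array 2 was the lowest of all 6 and the control array 2d the highest. With single arrays left out, ACLY ran between -0.21 and -0.01 and FASN between -0.21 and -0.01.

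The acetyl-CoA carboxylases make malonyl-CoA. ACACA, the cytosolic form, averaged 9.99 ± 0.055 in spinophilin-silenced cells and 9.96 ± 0.15 in control cells, and ACACB, the form at mitochondria, averaged 5.47 ± 0.094 in spinophilin-silenced cells and 5.33 ± 0.081 in control cells (SD, n = 3 each). ACSS2, which makes acetyl-CoA from acetate, averaged 6.56 ± 0.024 in spinophilin-silenced cells and 6.49 ± 0.13 in control cells (SD, n = 3 each). The groups overlapped for these 3 genes. ACACB stayed between 0.09 and 0.19 with single arrays left out, whereas ACACA and ACSS2 changed sign.

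Among the genes that desaturate and elongate fatty acids, 4 of 5 lay above 0, with a median of 0.048, and array 2d was the highest of its group in both groups for 4 of 5. SCD averaged 10.82 ± 0.28 in spinophilin-silenced cells and 10.69 ± 0.29 in control cells (SD, n = 3 each), a difference of 0.12 (SE 0.19, limma, adjusted p = 0.939) that ran between -0.03 and 0.29 with single arrays left out. Its second transcript cluster differed by 0.25 (SE 0.13, limma, adjusted p = 0.778). FADS2, which begins the making of polyunsaturated fatty acids, was the exception to the 2d pattern. It measured 5.89, 6.12 and 5.68 in spinophilin-silenced cells and 5.72, 5.96 and 5.84 in control cells, with label 2 the highest of each group, and differed by 0.06 (SE 0.13, limma, adjusted p = 0.966).

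FADS1, the partner desaturase of FADS2, differed by 0.05 and changed sign when control array 1 was left out. Over the 6 arrays, the elongases had the narrowest ranges of the 30 genes. ELOVL5 lay between 9.28 and 9.39 in spinophilin-silenced cells and between 9.25 and 9.32 in control cells, and ELOVL6 lay between 8.61 and 8.70 in spinophilin-silenced cells and between 8.66 and 8.69 in control cells. Their differences were 0.03 for ELOVL5, with an interval of -0.15 to 0.22, and -0.02 for ELOVL6, with an interval of -0.20 to 0.15.

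Single arrays decided the sign of many of these differences. Leaving out 1 array in turn changed the sign for 13 of 30 genes (SREBF1, SREBF2, PMVK, FDPS, SQLE, NSDHL, HSD17B7, DHCR7, ACACA, ACSS2, SCD, FADS1 and FADS2). With all arrays, the differences of these 13 were small, the largest being 0.12 for SCD. The array whose removal moved the difference most was a 2d array for 15 of 30 genes, the spinophilin-silenced one for 7 and the control one for 8. The spinophilin-silenced array 2 was that array for 7 genes, the spinophilin-silenced array 1 for 5, the control array 1 for 2 and the control array 2 for 1. Neither the sign changes nor these removals were counted over all named genes, so they are not shown to be particular to the synthesis genes. Averaged over the 30 genes, the deviation from the gene means was 0.023, -0.037 and 0.123 on the spinophilin-silenced arrays 1, 2 and 2d and -0.093, -0.080 and 0.064 on the control arrays 1, 2 and 2d. The highest of the 6 values fell on the spinophilin-silenced arrays 1, 2 and 2d for 5, 7 and 10 genes and on the control array 2d for 8, and for 0 genes on the control arrays 1 and 2, where 19.9% and 13.9% of named genes had their highest value.

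With both 2d arrays left out, an alternative chosen after seeing the data, 2 arrays remained in each group. The differences of 20 of 30 genes were then above 0. The groups did not overlap for 14 genes, 12 higher and 2 lower in spinophilin-silenced cells, against 18.1% of named genes higher and 20.2% lower. The 12 were ACAT2, HMGCS1, PMVK, MVD, SQLE, MSMO1, EBP, INSIG1, STARD4, ACACA, ACACB and FADS1, and the 2 were HSD17B7 and ELOVL6. For INSIG1, HMGCS1, MSMO1 and STARD4 this outcome was fixed in advance, since only the control array 2d had made their groups overlap. The count of 12 beside 18.1% is therefore no support for a difference. INSIG1 then differed by 0.24 (limma, adjusted p = 0.800), HMGCS1 by 0.24 (limma, adjusted p = 0.728) and STARD4 by 0.36 (limma, unadjusted p = 0.0186, adjusted p = 0.569). No gene of the 30 passed the adjusted threshold in this fit, and 1 of 30, STARD4, had an unadjusted p under 0.05.

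Related genes outside the synthesis list were counted from lists of neighbouring pathways, and 0 genes of any of the 5 lists passed limma's adjusted threshold. Of genes that sense and traffic sterols, 12 of 20 were measured, 6 above 0, with a median difference of 0.0099, and 0 had an unadjusted p under 0.05. ERLIN2, part of a complex in the endoplasmic reticulum that takes part in sterol sensing, differed by -0.20, GRAMD1A, which moves cholesterol from the plasma membrane inward, by -0.15 and OSBP, an oxysterol-binding protein, by 0.13 (limma, adjusted p-values 0.754, 0.810 and 0.831). Liver X receptors respond to sterol excess, and of these and their targets 5 of 11 were measured, 4 above 0, with a median of 0.054 and 0 at an unadjusted p under 0.05. The phospholipid acyltransferase LPCAT3 differed by 0.17, the phospholipid transfer protein PLTP by -0.11 and the ubiquitin ligase MYLIP by 0.08. For the branch of the mevalonate pathway that makes dolichol and prenyl groups, 6 of 16 were measured, 1 above 0, with a median of -0.082.

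In that branch DOLK, the dolichol kinase, measured 6.61, 6.35 and 6.28 in spinophilin-silenced cells and 6.78, 6.63 and 6.66 in control cells. The groups did not overlap, and the difference was -0.28 (SE 0.11, limma, unadjusted p = 0.0394, adjusted p = 0.642). DHDDS and NUS1, the subunits of the enzyme that builds the dolichol chain, differed by -0.11 and -0.08. The 2d arrays were not the highest in both groups for any of these 6 genes.

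The widest differences beside the synthesis genes were among genes of fatty acid supply, elongation and esterification, of which 21 of 33 were measured, 10 above 0, with a median of -0.0076. ELOVL4, which elongates very long chain fatty acids, measured 6.20, 6.30 and 6.55 in spinophilin-silenced cells and 7.49, 7.28 and 7.00 in control cells. Every spinophilin-silenced array lay below every control array, and the difference was -0.91 (SE 0.15, limma, adjusted p = 0.114). ACSL5, which activates fatty acids to their CoA esters, measured 7.95, 8.04 and 8.07 in spinophilin-silenced cells and 7.66, 7.54 and 7.36 in control cells, a difference of 0.50 (SE 0.10, limma, adjusted p = 0.208). MID1IP1, a protein that promotes the assembly of acetyl-CoA carboxylase, differed by 0.33 (limma, adjusted p = 0.441), again without overlap. These 3 had an unadjusted p under 0.05, and none passed the adjusted threshold.

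Of fatty acid oxidation genes, 13 of 26 were measured, 10 above 0, with a median of 0.050 and 0 at an unadjusted p under 0.05. The nuclear receptor PPARD differed by -0.24, the lipid droplet protein PLIN2 by 0.10 and the thiolase ACAA1 by 0.20 (limma, adjusted p-values 0.752, 0.882 and 0.885).

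**Figure D5:**
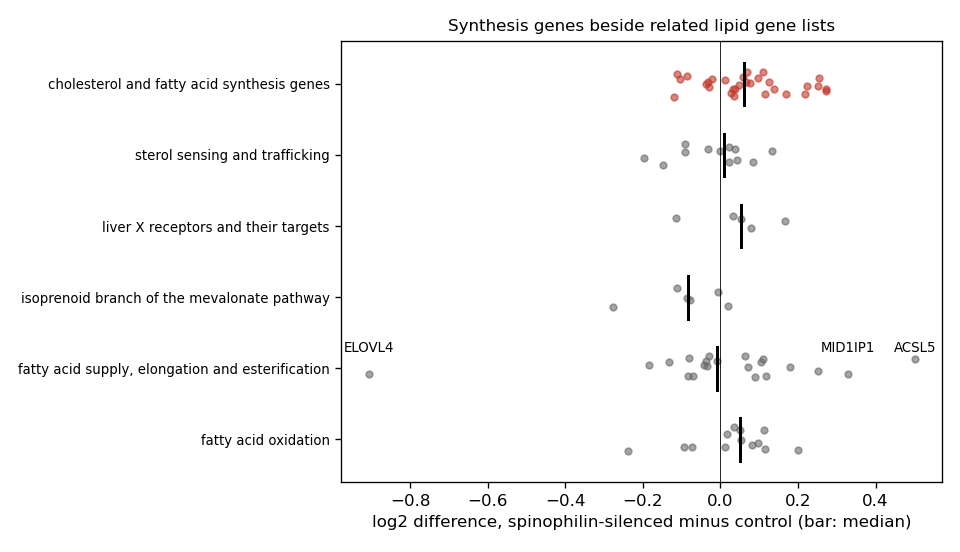
Log2 difference, spinophilin-silenced minus control (x axis), of each gene in the synthesis list (red) and in 5 lists of related lipid genes (grey), with vertical bars at the medians. The synthesis genes lie between -0.12 and 0.27. Several genes of the other lists lie outside that range, the farthest being ELOVL4 at -0.91 and ACSL5 at 0.50.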

How the data were processed

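Total RNA of each sample was amplified to cDNA, which was labelled with biotin and measured on 1 Affymetrix array. According to the submitters, the authors made the deposited log2 values in Partek 6.6 by RMA, which corrects background, quantile-normalizes the arrays together and summarises probes by median polish. The sources name no log base, and base 2 was assumed from the range. Because quantile normalization equalizes the arrays, a difference in total RNA cannot be seen. Of the 53617 transcript clusters, the annotation gave a symbol to 16098 (0 with more than 1 symbol) and none to 37519. Symbols were updated through RefSeq, and for the 779 genes with several transcript clusters the brightest by mean over the 6 arrays was used.

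Spinophilin-silenced and control arrays were compared on all transcript clusters with limma (version 3.58.1, R 4.3.3), by lmFit and then eBayes, two-sided, without filter or covariate, with Benjamini-Hochberg adjustment and a threshold of 0.05. The number of arrays, 3 per group, limits the precision. The fit was tested on simulated data with independent noise for each array. These data held no effect shared by arrays of the same label, so such an effect was not covered. The synthesis genes and the other lists were chosen with earlier results of these data known. All 30 genes are named, with full statistics for the regulators, the 6 largest differences in each direction, genes without overlap or with an unadjusted p under 0.05, and those most dependent on 1 array. From each other list, the 3 genes with the smallest p are named. Alternatives covered the replicate block, arrays 2 and 2d averaged or as a random block, other normalizations, a filter on dim transcript clusters, variance models, the unmoderated test, the transcript cluster per gene, and leaving out arrays.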

Additional observations from a re-analysis of the deposited data

How the results depend on the processing

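No synthesis gene passed the adjusted threshold in any of 18 alternatives, where the lowest adjusted p was 0.378. Of the 30 genes, 17 kept their sign in all 18 and 13 did not. The count of transcript clusters at an adjusted p under 0.05, 110 with all arrays, was 40 with the replicate block, 12 with arrays 2 and 2d averaged and 223 with them as a random block. It was 0 with the unmoderated test (3764 at an unadjusted p under 0.05) and 0 without both 2d arrays (3886 at an unadjusted p under 0.05), and 15 to 48 with single arrays left out. The correlation estimated within the random block was -0.24, and a negative value narrows the standard errors. The 223 is therefore no sign of a stronger result. The lowest adjusted p given above, that of ACAT2, came from the same random-block fit. The count of synthesis genes at an unadjusted p under 0.05, 1 with all arrays, was 3 with the replicate block (HMGCS1, INSIG1 and STARD4), 2 with the random block, with trend and robust variances and with array weights, and 0 with averaging, repeated quantile normalization and cyclic loess, and 0 to 1 with single arrays left out. Of all 53617 transcript clusters, 3964 had such a p with all arrays, 4109 with the replicate block and 5585 with the random block. The number was 3983 with trend and robust variances, 4488 with array weights and 3255 with averaging. The count without overlap, 2 with all arrays, was 9 with averaging and 14 without both 2d arrays, and 2 to 11 with single arrays left out. Groups of fewer arrays separate more easily. Without both 2d arrays, 18.1% of named genes were higher and 20.2% lower without overlap. That removal was chosen after seeing the data. With averaging or single arrays left out, the share of named genes was not counted, so these counts show no stronger result. Of the medians, only that of the fatty acid genes turned, ranging from -0.0066 to 0.060 with single arrays left out. The cause was not tested.

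The main fit did not pair samples by label, because the second factor of the study's analysis of variance is not named. Over all transcript clusters, arrays labelled 1, 2 and 2d correlated with the same label of the other group at 0.012, 2e-05 and 0.093. These are correlations of deviations from the group means. Arrays of unlike labels correlated at -0.068 to 0.062. For genes picked as high on both 2d arrays, the block removes that shared deviation, so a smaller SE follows from the picking. With the block, INSIG1 had an SE of 0.087 instead of 0.24 (limma, unadjusted p = 0.0318, adjusted p = 0.599). HMGCS1 had an SE of 0.090 instead of 0.22 (limma, unadjusted p = 0.0291, adjusted p = 0.59). Not every SE fell, and that of ACAT2 was 0.092 instead of 0.088 (limma, unadjusted p = 0.0639). The block moved 0 synthesis genes past the adjusted threshold. Averaging turned FDPS to 0.014 and DHCR7 to 0.0020, the random block turned SREBF2 to -0.00086, array weights turned SREBF1 to -0.0012, and leaving out both 2d arrays turned HSD17B7 to -0.11 and ACSS2 to -0.012. With single arrays left out, the differences that changed sign ranged from -0.041 to 0.14 for SREBF1, -0.063 to 0.13 for SREBF2, -0.017 to 0.14 for PMVK, -0.15 to 0.049 for FDPS, -0.037 to 0.12 for SQLE, -0.11 to 0.050 for NSDHL, -0.20 to 0.23 for HSD17B7, -0.079 to 0.036 for DHCR7, -0.025 to 0.12 for ACACA, -0.0056 to 0.11 for ACSS2, -0.025 to 0.29 for SCD, -0.011 to 0.15 for FADS1 and -0.055 to 0.16 for FADS2. HSD17B7 has no value with the filter on dim transcript clusters, which removed it. Another background correction was not run, since the values used here are summarised.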

Other observations

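Other named genes also had a large excess on both 2d arrays over the other arrays of their group. The protein-coding genes placed above HMGCS1 by the smaller of both excesses, beside INSIG1, were CXCL8, TLR2, HGF and CLYBL. The others placed above it were non-coding: MIR944, FRMD6-AS2, MIR544B, MIR181B2, MIR103A2, FAR2P1 and MIR3144. CXCL8, a chemokine gene, measured 7.93, 8.55 and 9.14 on the spinophilin-silenced arrays 1, 2 and 2d and 8.68, 8.87 and 9.99 on the control arrays 1, 2 and 2d, an excess of array 2d of 0.90 and 1.22. TLR2, a receptor of innate immunity, measured 6.81, 6.86 and 7.76 in spinophilin-silenced cells and 7.28, 7.22 and 7.93 in control cells. HGF, a growth factor gene, measured 7.12, 7.05 and 7.70 in spinophilin-silenced cells and 7.13, 7.42 and 7.89 in control cells. CLYBL, which encodes a mitochondrial enzyme, had an excess of 0.81 in spinophilin-silenced cells and 0.56 in control cells. These genes were found by ordering all named genes on the values themselves, so their places are a description without a test.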
